A study of Homo sapiens with 8 samples.

Results

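The 10 genes described here encode secreted guidance ligands of the SLIT and class 3 semaphorin families and their cell surface receptors: SLIT2, SLIT3, ROBO1, ROBO2, SEMA3A, SEMA3C, SEMA3D, SEMA3E, NRP1 and NRP2. They are 10 of the 27945 genes in the count table and were picked by symbol because the run-on signal of SLIT2 was among the largest rises after METTL14 knockdown. The values of the shMETTL14 libraries against the shControl libraries therefore chose this family, and they are given below as a description without a test.

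Nascent transcription was measured by fast global run-on sequencing (fastGRO-seq), in which RNA polymerases engaged in isolated nuclei extend their transcripts in the presence of a label and the labelled RNA is sequenced. The cells were IMR90, a human diploid fibroblast line from embryonic lung, grown at 2% oxygen and carrying an inducible fusion of the estrogen receptor with oncogenic H-RAS (ER:RAS). The 8 libraries fall into 4 groups of 2. The control group, proliferating cells in the paper, has no shRNA in its labels, and no dose of 4-hydroxytamoxifen (4-OHT) is given for it. The shControl, shMETTL3 and shMETTL14 groups are senescent cells infected with a control hairpin or a hairpin against METTL3 or METTL14, the subunits of the complex that places m6A on RNA. The general methods of the paper give induction with 100 nM 4-OHT and harvest on day 6 to examine senescence markers. They state no day for these libraries in particular. A single hairpin was used per target, and the hairpins came by lentivirus with drug selection. The control group thus differs from shControl in the hairpin, in senescence and, as far as stated, in 4-OHT, and these cannot be told apart. The sources do not say for every group how the 2 libraries were grown, and the p-values measure only the spread between these samples.

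SLIT proteins are secreted ligands that bind ROBO receptors and repel growing axons and migrating cells. Class 3 semaphorins are secreted as well and signal through a receptor made of a neuropilin, which binds the ligand, and a plexin, which carries the signal into the cell. SEMA3E is an exception and can bind plexin D1 without a neuropilin. Outside the nervous system both families act on blood vessel growth, cell adhesion and cell migration, and fibroblasts are a source of several of the ligands.

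SLIT2 and SLIT3 each carry in an intron a hairpin of miR-218, a microRNA known to repress ROBO receptor mRNAs, and its sequence is shown because it links the ligand genes to the receptor genes of the same set. In the GENCODE annotation of GRCh37, MIR218-1 (chr4:20529898-20530007, plus strand) lies in an intron of 5 protein-coding transcripts of SLIT2 and MIR218-2 (chr5:168195151-168195260, minus strand) in an intron of 2 of SLIT3. The mature 5p arm of 21 bases in the RefSeq table (GRCh38.p14) is the same from both hairpins, and the capitals mark its seed, bases 2 to 8.
hsa-miR-218-5p: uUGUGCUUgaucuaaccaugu
Both hairpin rows had 0 counts in all 8 libraries. An even spread of the 1142 counts of SLIT2 over its gene body would place 0.3 counts on MIR218-1, so at this depth the hairpins themselves could not be measured.

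RefSeq promoters of 300 bases, from 250 before to 50 after the start (GRCh38.p14), were matched for 8 of the 10 genes, 12 promoters in all. SEMA3A and NRP1 were not matched. The promoter of SLIT2, the gene behind the choice of this family, and both promoters of ROBO1, whose long and short forms bear on its counts, are printed with capitals on matches to 4 motifs searched on both strands.
SLIT2, chr4:20251655-20251954, plus strand: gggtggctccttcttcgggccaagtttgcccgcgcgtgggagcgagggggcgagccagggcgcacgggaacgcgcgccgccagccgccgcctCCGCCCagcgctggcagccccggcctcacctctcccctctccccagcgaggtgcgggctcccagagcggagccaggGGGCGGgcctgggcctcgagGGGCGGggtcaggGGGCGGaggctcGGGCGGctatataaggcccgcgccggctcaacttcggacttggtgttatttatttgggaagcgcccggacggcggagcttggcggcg
ROBO1, long form, chr3:79767949-79768248, minus strand: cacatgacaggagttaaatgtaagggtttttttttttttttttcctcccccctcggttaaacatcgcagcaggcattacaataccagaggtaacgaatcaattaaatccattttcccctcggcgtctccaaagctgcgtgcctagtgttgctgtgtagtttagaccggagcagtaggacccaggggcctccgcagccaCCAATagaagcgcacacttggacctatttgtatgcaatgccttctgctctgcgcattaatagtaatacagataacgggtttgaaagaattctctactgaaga
ROBO1, short form, chr3:79019410-79019709, minus strand: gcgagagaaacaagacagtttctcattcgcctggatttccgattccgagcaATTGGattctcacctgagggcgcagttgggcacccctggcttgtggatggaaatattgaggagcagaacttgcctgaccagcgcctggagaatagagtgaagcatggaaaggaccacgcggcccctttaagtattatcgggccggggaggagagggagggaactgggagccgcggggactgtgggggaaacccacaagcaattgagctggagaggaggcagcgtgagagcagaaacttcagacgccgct
The SLIT2 promoter held 5 GC boxes (GGGCGG), a motif found in 45.0% of the 35116 RefSeq promoters of this length, and 36 CpG dinucleotides where the median promoter has 14. Each ROBO1 promoter held 1 CCAAT box (CCAAT), found in 34.6% of promoters. Among the 12 promoters of the family, 5 held a GC box, 4 a CCAAT box and 1, of SEMA3E, a TATA box (TATAAA, in 11.5% of promoters), and none held the AP-1 motif TGANTCA (in 7.7%). These are matches of letters in a short window and not measured sites.

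Each library held 14897360 to 20306299 counts, of which ribosomal RNA rows took 86.2 to 92.5%, leaving 1513930 to 2048475 on other genes. The shMETTL3 pair differed by 9.69 times the variance that sampling gives, against 2.01 to 4.85 times in the other pairs. METTL3 had 77 and 47 counts in the shControl libraries and 16 and 19 in the shMETTL3 libraries, a log2 fold change of -2.04 (SE 0.31, edgeR adjusted p = 1.8e-05). For METTL14 the shMETTL14 libraries had 18 and 14 counts, the shControl libraries 24 and 28 and the control libraries 60 and 55. The log2 difference of -0.86 between shMETTL14 and shControl (SE 0.34) did not pass (edgeR adjusted p = 0.076). METTL14 was lower with shMETTL14 than with shMETTL3 (log2 -1.41, SE 0.32, edgeR adjusted p = 0.001). Against control cells it was lower with shMETTL14 (log2 -1.62, edgeR adjusted p = 0.00012) and in shControl (log2 -0.76, edgeR adjusted p = 0.047). Run-on counts measure transcription and not the level of mRNA or protein, and for the knockdowns the paper refers to a western blot. All 10 fibroblast markers had 10 or more counts in every library, with a summed count of 26835 to 28069 in control, 10078 to 12390 in shControl, 12531 to 13710 in shMETTL3 and 8277 to 8871 in shMETTL14 libraries. Of the markers of other cell types, 3 of 5 endothelial, 4 of 5 epithelial and 2 of 4 immune ones had at most 3 counts in any library, defining ones such as PECAM1, CDH5, EPCAM and CD3E among them. The summed endothelial list was 115 to 133 counts in control and 16 to 75 elsewhere, mostly TEK. The immune list was 17 to 19 in control and 27 to 63 elsewhere, mostly CD68. The epithelial list was 0 to 9, and the smooth muscle list 43 to 60 in control and 8 to 25 elsewhere. The summed neuronal list ran from 522 to 3032 counts, lowest in control and highest in shMETTL14 libraries. Most of it was SYN1, a gene that encloses TIMP1 on the opposite strand. SYT1 had 111 to 317 counts in every library, and SNAP25 24 to 32 in control and 3 to 10 elsewhere. RBFOX3 had at most 6 counts and ELAVL3 at most 1. The part of these marker levels in the results below was not tested.

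Of the 10 genes, 9 passed the filter on low counts and entered the edgeR quasi-likelihood fit with 12844 genes in all. SLIT3 did not, with 0 to 6 counts per library over 639.4 kb. A count of 0, found in 3 libraries, allows up to 3 counts, so a difference in SLIT3 was not detectable at this depth. In the text below, normalized counts are counts scaled for library size and composition, log2 fold changes come from the edgeR fit, and a gene rose or fell where its Benjamini-Hochberg adjusted p was below 0.05.

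SLIT2 was chosen on its shControl and shMETTL14 values and is left out of the counts that use those libraries. In senescent shControl cells against control cells, 2 of the 8 other tested genes rose, where 13.3% of all genes did, and 1 fell, where 13.3% of all genes did. With shMETTL3 against shControl, 4 of the 8 rose (12.2% of all genes) and 0 fell (11.2%). At an unadjusted edgeR p below 0.05, 1 was lower, and DESeq2 called 0. With shMETTL14 against shControl, the contrast that chose the family, 1 of the 8 was higher (9.15% of all genes) and 3 were lower (12%), from which nothing is read. Between the knockdowns, the 8 tested genes other than SLIT2 held 0 higher (16.5% of all genes) and 4 lower (18.7%) with shMETTL14 than with shMETTL3, and 0 were higher at an unadjusted edgeR p below 0.05 or by DESeq2. Against control cells, 5 of the 9 rose (20.1%) and 3 fell (20.1%) with shMETTL3, and of the 8 other than SLIT2 2 rose (19.7%) and 2 fell (20.5%) with shMETTL14. The median log2 fold change of the 8 genes was 0.03 in senescence and 0.54 with shMETTL3 over shControl, where the median of all genes was -0.03 in both.

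**Figure D1:**
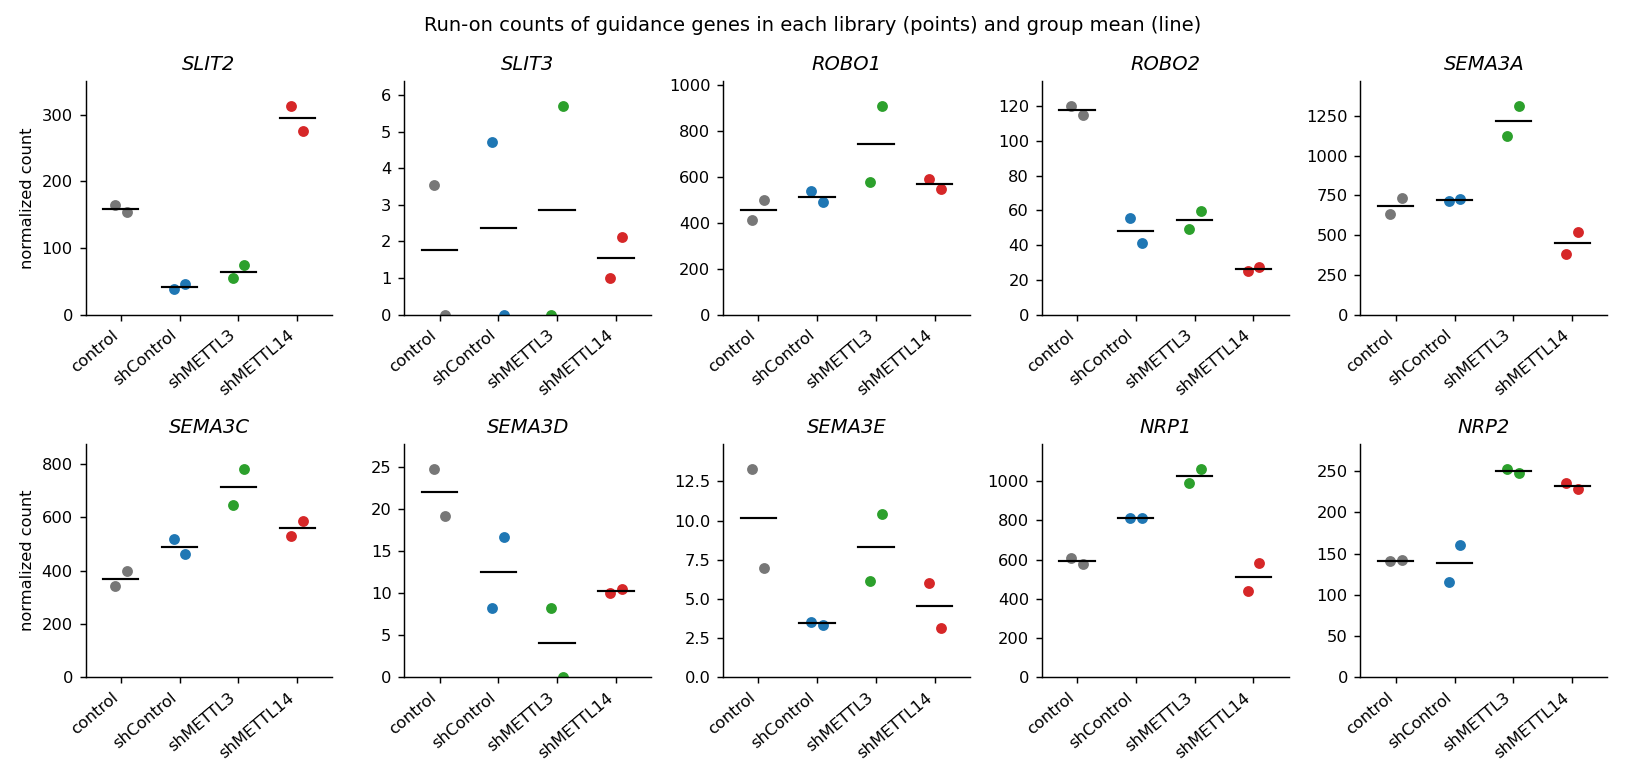
Normalized run-on counts (y axis, linear from 0, a scale of its own per gene) of the 10 genes in the control, shControl, shMETTL3 and shMETTL14 groups. Each point is 1 library and each line the mean of 2. SLIT2 sits at 37.8 to 45.6 in shControl and at 276 to 313 in shMETTL14 libraries, while SEMA3A and NRP1 have their highest means with shMETTL3 and their lowest with shMETTL14.

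SLIT2, a secreted ligand of ROBO1 and ROBO2 (hg19, chr4:20253528-20622184, plus strand, 368.7 kb), had normalized counts of 164 and 154 in control, 37.8 and 45.6 in shControl, 54.4 and 75 in shMETTL3 and 313 and 276 in shMETTL14 libraries. The 4 groups did not overlap, with shMETTL14 highest, control next and shControl lowest. In these bulk libraries fewer cells that transcribe a gene and less transcription per cell cannot be told apart.

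The mean of SLIT2 was 159 ± 6.86 in control and 41.7 ± 5.52 in senescent shControl cells (SD, n = 2), a log2 fold change of -1.92 (SE 0.21). This comparison shares its shControl libraries with the one that chose the gene and is given without a test. The comparison of shMETTL3 with control cells uses neither of the groups that chose it, and there SLIT2 fell (log2 -1.29, SE 0.19, edgeR adjusted p = 2.6e-06), to 64.7 ± 14.6. Across the 16 alternative fits, the log2 value of shMETTL3 against control stayed between -1.55 and -1.09, past the threshold each time.

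With shMETTL3 against shControl, SLIT2 had a log2 fold change of 0.63 (SE 0.23), 0.83 without shMETTL3 replicate 1 and 0.36 without replicate 2. With shMETTL14 the mean was 294 ± 26.1, which is 7.02-fold the shControl mean by the fit (log2 2.81), 4.53-fold that of shMETTL3 (log2 2.18) and 1.85-fold that of control cells (log2 0.89). The values of this paragraph are the ones the gene was chosen on, or share libraries with them, and are given without a test.

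SLIT2-IT1, a short transcript row inside SLIT2 on the same strand (2.7 kb), had 10 counts over all libraries, where an even spread of SLIT2 reads would give 8.3.

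ROBO1 (chr3:78646388-79817059, minus strand, 1170.7 kb), the most widely studied SLIT receptor, had normalized counts of 414 and 498 in control, 537 and 490 in shControl, 579 and 908 in shMETTL3 and 589 and 547 in shMETTL14 libraries. The control and shControl libraries overlapped and the shMETTL3 replicates lay far apart. ROBO1 rose with shMETTL3 by 0.54 over shControl (SE 0.16, edgeR adjusted p = 0.018) and by 0.70 over control cells (SE 0.16, edgeR adjusted p = 0.00097). Without shMETTL3 replicate 2 these values were 0.15 (adjusted p = 0.56) and 0.34 (adjusted p = 0.082), and the call over shControl also ended without shControl replicate 1 (0.59, adjusted p = 0.079) or replicate 2 (0.46, adjusted p = 0.2). In senescence (0.17, edgeR adjusted p = 0.5) and with shMETTL14 against control cells (0.31, edgeR adjusted p = 0.13) ROBO1 did not pass the test.

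The counted span of ROBO1 is that of its long form. Of 7 protein-coding transcripts in GENCODE, 1 starts beyond the opposite-strand row LOC101927374 (chr3:79460877-79484377) and 6 start short of it, by 392.3 kb or more. That row had 0 counts in every library, where an even spread of the 4562 counts of ROBO1 would give 91.6. The level of ROBO1 per kilobase given below divides its reads by the whole long span. If all its counts lay within the 422.2 kb of the shorter transcripts, an alternative added after the data were seen, its mean would be 1.08 per kilobase in control, 1.22 in shControl, 1.76 in shMETTL3 and 1.35 in shMETTL14 libraries. Whether this table keeps reads of opposite strands apart was not settled: of 213 rows lying inside a strongly transcribed gene of the other strand, 204 had counts, which transcription of their own would also give, and 9 had none.

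ROBO2 (chr3:77089294-77699114, plus strand, 609.8 kb), which binds the same ligands, had normalized counts of 120 and 115 in control, 55.6 and 41.2 in shControl, 49.2 and 59.8 in shMETTL3 and 25 and 27.4 in shMETTL14 libraries. The control libraries were highest, the shMETTL14 libraries lowest, and shControl and shMETTL3 overlapped. ROBO2 fell in senescence (log2 -1.28, SE 0.22, edgeR adjusted p = 4.9e-05), a 2.44-fold difference, and was lower than in control cells with shMETTL3 (log2 -1.10, SE 0.21, edgeR adjusted p = 0.00011) and with shMETTL14 (log2 -2.16, SE 0.24, edgeR adjusted p = 3.4e-08). These calls held in all 16 alternative fits. The counted row covers 35.0% of the span of the protein-coding GENCODE transcripts of ROBO2.

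Between the knockdowns ROBO2 differed (log2 -1.06, SE 0.27, edgeR adjusted p = 0.0027), 2.08-fold lower with shMETTL14. Against shControl its values were 0.18 with shMETTL3 (edgeR adjusted p = 0.64) and, as a description, -0.88 with shMETTL14. SLIT2 had its highest and its receptor ROBO2 its lowest values in the shMETTL14 libraries, and the values of both were lower in shControl than in control libraries.

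The ratio of ROBO1 to ROBO2 per kilobase within a library does not depend on how libraries are scaled. It was 1.79 and 2.26 in control, 5.03 and 6.19 in shControl, 6.12 and 7.9 in shMETTL3 and 12.3 and 10.4 in shMETTL14 libraries. The control and shMETTL14 libraries stood apart from the rest at either end, and shControl and shMETTL3 overlapped. The ratio of SLIT2 to ROBO1 was 1.26 and 0.983 in control, 0.224 and 0.296 in shControl, 0.298 and 0.262 in shMETTL3 and 1.69 and 1.6 in shMETTL14 libraries. Over the shorter span of ROBO1 the mean ratio of ROBO1 to ROBO2 was 5.61 in control, 15.6 in shControl, 19.4 in shMETTL3 and 31.4 in shMETTL14 libraries, and that of SLIT2 to ROBO1 0.404, 0.0937, 0.101 and 0.593, so SLIT2 then lay below ROBO1 in every group. These ratios were not tested.

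**Figure D2:**
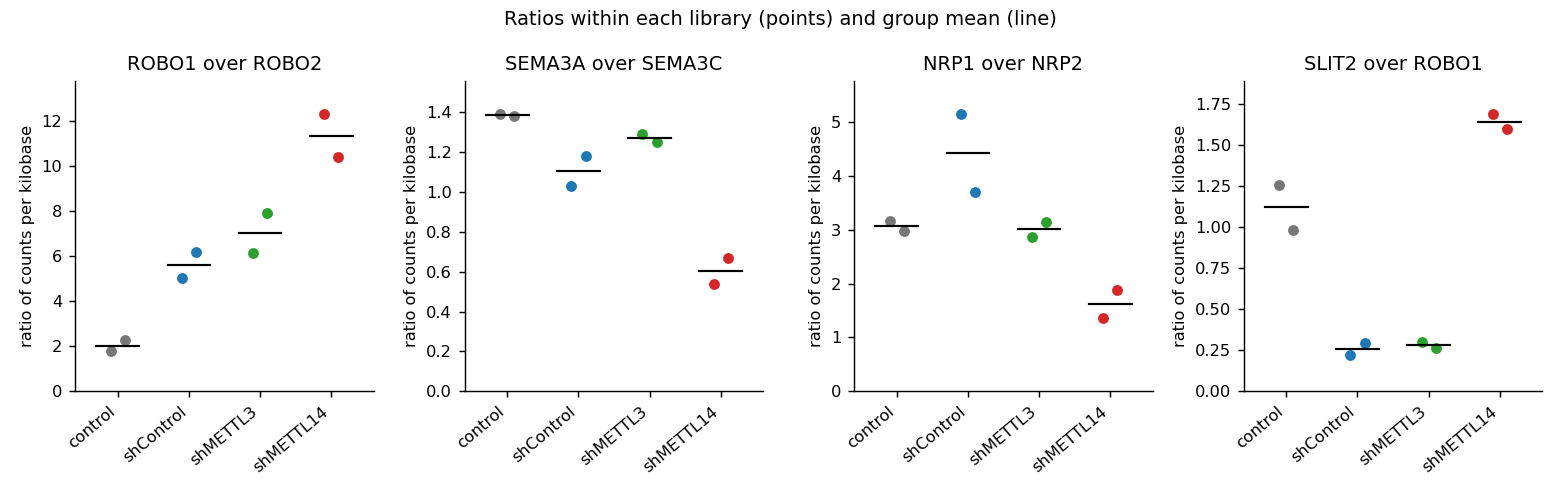
Ratios of counts per kilobase within each library (y axis, linear from 0) for ROBO1 over ROBO2, SEMA3A over SEMA3C, NRP1 over NRP2 and SLIT2 over ROBO1, by group. Points are libraries and lines are means of 2. The mean ROBO1 to ROBO2 ratio runs from 2.02 in control to 11.3 in shMETTL14 libraries, and the mean SEMA3A to SEMA3C ratio from 1.38 to 0.603.

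SEMA3A (chr7:83587659-83824217, minus strand, 236.6 kb), a ligand that binds NRP1 and collapses growth cones, had normalized counts of 635 and 733 in control, 715 and 730 in shControl, 1121 and 1312 in shMETTL3 and 383 and 522 in shMETTL14 libraries. The shMETTL3 libraries were above and the shMETTL14 libraries below all others, and control and shControl overlapped. SEMA3A rose with shMETTL3 by 0.75 over shControl (SE 0.15, edgeR adjusted p = 0.00044), which is 1.68-fold, and by 0.83 over control cells (edgeR adjusted p = 4.8e-05), in all 16 alternative fits. It was 2.69-fold lower with shMETTL14 than with shMETTL3 (log2 -1.43, SE 0.15, edgeR adjusted p = 5.3e-08). The counted row covers 44.1% of the GENCODE span of its protein-coding transcripts.

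Senescence left SEMA3A at 0.08 (edgeR adjusted p = 0.75). With shMETTL14 it was lower than in control cells (log2 -0.60, SE 0.15, edgeR adjusted p = 0.0023), but the call ended without shMETTL14 replicate 1 (-0.37, adjusted p = 0.096) or control replicate 2 (-0.49, adjusted p = 0.066). Against shControl, as a description, its log2 value was -0.68.

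SEMA3C (chr7:80371852-80548667, minus strand, 176.8 kb), which signals through both neuropilins and guides cells of the heart outflow tract, had normalized counts of 341 and 398 in control, 517 and 463 in shControl, 648 and 782 in shMETTL3 and 531 and 586 in shMETTL14 libraries. Control libraries were lowest and shMETTL3 libraries highest, and no groups overlapped. It rose by 0.41 in senescence (SE 0.14, edgeR adjusted p = 0.037), by 0.55 with shMETTL3 over shControl (SE 0.14, edgeR adjusted p = 0.0054) and by 0.95 with shMETTL3 over control cells (SE 0.14, edgeR adjusted p = 4.1e-06). The last call held in all 16 alternative fits. The call in senescence ended with DESeq2 (adjusted p = 0.093), with upper quartile scaling (adjusted p = 0.066) and without any 1 of the 4 libraries compared (adjusted p 0.061 to 0.32), and the call over shControl ended without shControl replicate 2 (0.46, adjusted p = 0.13) or shMETTL3 replicate 2 (0.38, adjusted p = 0.07).

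With shMETTL14, SEMA3C was higher than in control cells by 0.59 (SE 0.14, edgeR adjusted p = 0.0014), a call that ended without control replicate 1 (0.49, adjusted p = 0.054). Between the knockdowns it was 1.28-fold lower with shMETTL14 (-0.36, SE 0.14, edgeR adjusted p = 0.046), a call that held in 4 of 16 alternative fits and was -0.2 (adjusted p = 0.34) without shMETTL3 replicate 2. The ratio of SEMA3A to SEMA3C within a library was 1.39 and 1.38 in control, 1.03 and 1.18 in shControl, 1.29 and 1.25 in shMETTL3 and 0.539 and 0.667 in shMETTL14 libraries. SEMA3A was thus the more transcribed ligand per kilobase in all libraries but those of shMETTL14, where SEMA3C was.

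SEMA3D (chr7:84624872-84751247, minus strand, 126.4 kb) and SEMA3E (chr7:82993222-83278479, minus strand, 285.3 kb) had low counts. SEMA3D had 28 and 22 counts in control, 7 and 15 in shControl, 8 and 0 in shMETTL3 and 10 and 10 in shMETTL14 libraries. It was lower with shMETTL3 than in control cells (-2.43, SE 0.65, edgeR adjusted p = 0.0035), a value that rests on the library with 0 counts. Without that library, shMETTL3 replicate 2, it was -1.41 (adjusted p = 0.0499), and without replicate 1 the group is at 0 and the fitted value of -7.46 is no bound.

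SEMA3E had 15 and 8 counts in control, 3 and 3 in shControl, 6 and 11 in shMETTL3 and 6 and 3 in shMETTL14 libraries. It passed no test, with -1.52 in senescence (SE 0.71, edgeR adjusted p = 0.12) and 1.25 with shMETTL3 over shControl (SE 0.74, edgeR adjusted p = 0.24). At counts this low its standard errors ran from 0.57 to 0.83, against 0.15 for SEMA3A.

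NRP1 (chr10:33466419-33623833, minus strand, 157.4 kb), the receptor subunit for SEMA3A and a coreceptor for vascular endothelial growth factor, had normalized counts of 607 and 576 in control, 811 and 814 in shControl, 990 and 1063 in shMETTL3 and 438 and 583 in shMETTL14 libraries. The shMETTL3 libraries were highest and the shMETTL14 libraries overlapped only the control libraries. NRP1 was 2.01-fold lower with shMETTL14 than with shMETTL3 (-1.01, SE 0.14, edgeR adjusted p = 3.8e-06), and it rose with shMETTL3 over control cells by 0.80 (SE 0.14, edgeR adjusted p = 4.9e-05), both in all 16 alternative fits.

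NRP1 rose in senescence by 0.46 (SE 0.14, edgeR adjusted p = 0.017), a call that ended without any 1 of the 4 libraries compared (0.43 to 0.5, adjusted p 0.084 to 0.14). With shMETTL3 over shControl it did not pass, at 0.34 (SE 0.14, edgeR adjusted p = 0.082). With shMETTL14 it was -0.67 against shControl, as a description, and -0.21 against control cells (edgeR adjusted p = 0.25).

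NRP2 (chr2:206547224-206662857, plus strand, 115.6 kb), a neuropilin that also binds vascular endothelial growth factor C, had normalized counts of 141 and 142 in control, 116 and 161 in shControl, 253 and 248 in shMETTL3 and 236 and 229 in shMETTL14 libraries. Both knockdown groups lay above all control and shControl libraries, which overlapped. NRP2 rose with shMETTL3 by 0.85 over shControl (SE 0.16, edgeR adjusted p = 0.00029), which is 1.8-fold, and by 0.83 over control cells (edgeR adjusted p = 0.00011). It was higher than in control cells by 0.72 with shMETTL14 (SE 0.16, edgeR adjusted p = 0.00059), and the knockdowns did not pass a test of their difference (-0.11, SE 0.15, edgeR adjusted p = 0.6).

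The neuropilins had opposite directions with shMETTL14 against shControl, 0.74 for NRP2 and -0.67 for NRP1, again as a description. The ratio of NRP1 to NRP2 per kilobase was 3.16 and 2.98 in control, 5.14 and 3.7 in shControl, 2.87 and 3.15 in shMETTL3 and 1.36 and 1.88 in shMETTL14 libraries, lowest in the last.

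**Figure D3:**
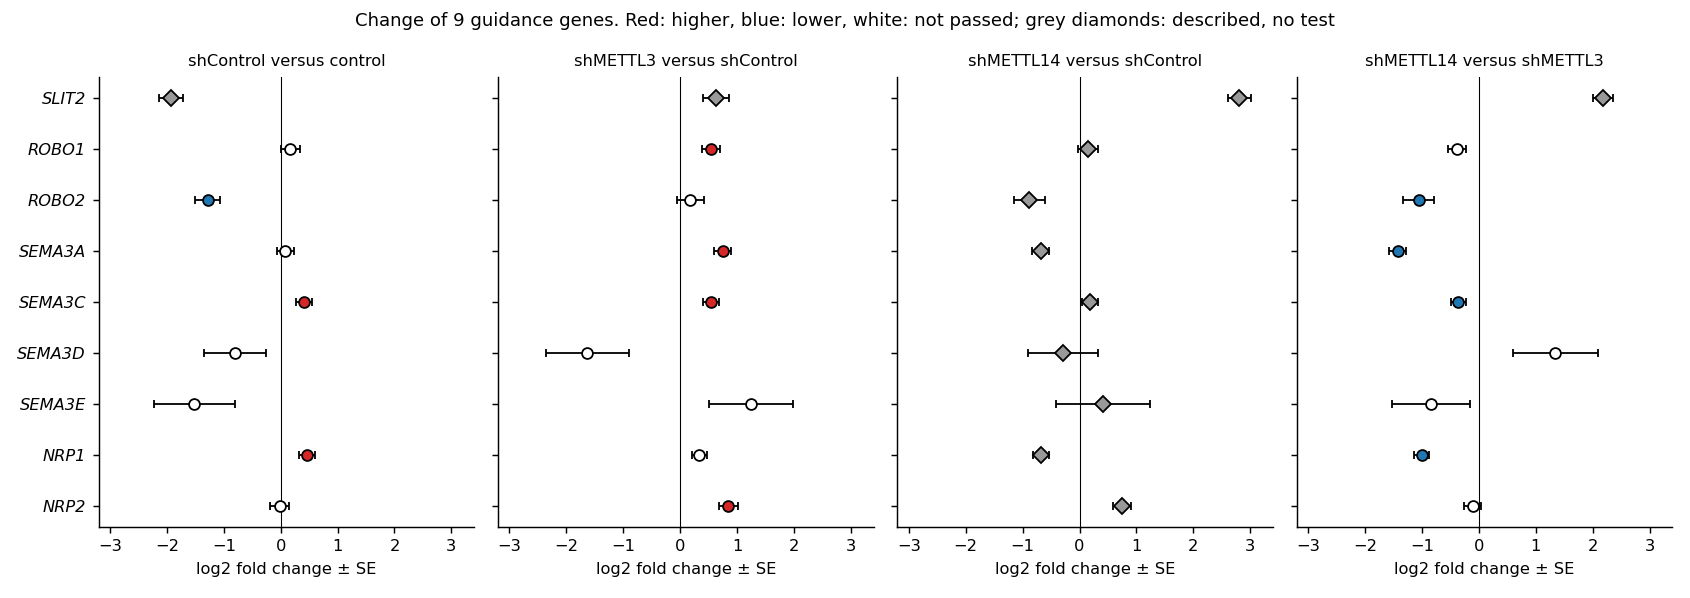
Log2 fold change with its standard error (x axis) of 9 genes (y axis) in 4 comparisons. Red and blue points passed the edgeR test as higher or lower, white points did not, and grey diamonds, SLIT2 throughout, are described without a test. With shMETTL3 against shControl ROBO1, SEMA3A, SEMA3C and NRP2 rose, and between the knockdowns ROBO2, SEMA3A, SEMA3C and NRP1 were lower with shMETTL14.

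How far these directions hang on scaling was visible in senescence. Scaling by library size alone, of which ribosomal RNA is most, moved the median log2 fold change of all genes to -0.53 in senescence, 0.58 with shMETTL3 and 0.35 with shMETTL14 over shControl, -0.25 between the knockdowns and, against control cells, 0.07 with shMETTL3 and -0.14 with shMETTL14. Higher and lower calls over all genes were then 752 and 5007 in senescence, 5285 and 353 with shMETTL3, 3163 and 710 with shMETTL14 and 1177 and 3486 between the knockdowns, where the main scaling gave 1711 and 1702, 1573 and 1434, 1175 and 1545, and 2118 and 2399. In senescence SEMA3C and NRP1 then turned to -0.09 and -0.04, which differ from the median of all genes by 0.44 and 0.49, and SLIT2 and ROBO2 to -2.42 and -1.78, which differ from that median by -1.89 and -1.25. Relative to that median, no called direction of a tested gene turned. Taking the median off comes close to the main scaling, so this could hardly come out otherwise and is no separate check.

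Levels of different genes were compared as normalized counts per kilobase of the counted row. NRP1 had the highest mean in every group, though its libraries overlapped those of SEMA3C with shMETTL14, with a mean of 3.76 ± 0.135 in control, 5.16 ± 0.0115 in shControl, 6.52 ± 0.329 in shMETTL3 and 3.24 ± 0.654 in shMETTL14 libraries, and its mean level over all libraries stood at the 81st percentile of the genes tested. SEMA3A (percentile 72.1), SEMA3C (69.9) and NRP2 (49.8) followed, then ROBO1 (17.1) and SLIT2 (13.2), and ROBO2 (3.3), SEMA3D (3.1) and SEMA3E (0.5) were among the least transcribed genes tested. The percentile of ROBO1 rests on its whole span. Over the shorter span its mean was 1.08 in control and 1.22 in shControl libraries, where NRP2 had 1.22 and 1.2. In shMETTL3 and shMETTL14 libraries it was then 1.76 and 1.35, where NRP2 had 2.17 and 2.01.

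With ROBO1 divided by its whole span, the order of levels in control libraries was NRP1, SEMA3A, SEMA3C, NRP2, SLIT2, ROBO1, ROBO2, SEMA3D, SEMA3E and SLIT3. Of these neighbours only SLIT2 with ROBO1 and ROBO2 with SEMA3D had overlapping libraries. In shControl and shMETTL3 libraries SLIT2 stood below ROBO1 without overlap. In shMETTL14 libraries SLIT2 (0.849 and 0.748) stood above ROBO1 (0.503 and 0.467) without overlap, an order that turned over the shorter span of ROBO1 (1.4 and 1.3), as it did in control libraries (ROBO1 0.981 and 1.18, SLIT2 0.444 and 0.418). With shMETTL14 SEMA3A dropped from the second to the fourth place, with values overlapping those of NRP2.

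**Figure D4:**
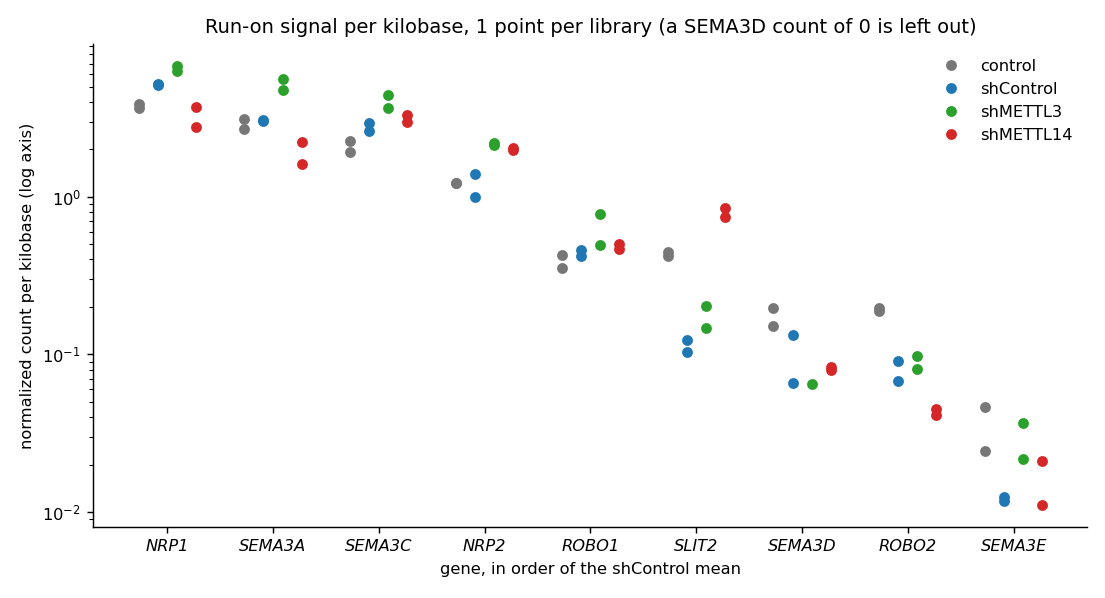
Normalized counts per kilobase (log y axis) of 9 genes, ordered by the shControl mean, with 1 point per library and a colour per group. NRP1, SEMA3A, SEMA3C and NRP2 lie between 1 and 6.76, and SLIT2 ranges from 0.103 in a shControl to 0.849 in a shMETTL14 library. SLIT3 is not drawn.

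The correlation of log2 normalized counts with SLIT2 was -0.839 for NRP1, -0.687 for SEMA3A, 0.297 for NRP2 and -0.217 to 0.244 for the other 5 tested genes, over 8 libraries that share depth and group structure. The 5 genes closest to SLIT2 among 3877 with a mean of at least 100 counts were PCDHGA3, PCDHGA9, PCDHGA2, PCDHGA1 and PCDHGA7 (r 0.981 to 0.984). These protocadherin gamma rows all span chr5:140782520-140892546 and count largely the same reads, so they are 1 locus, and their log2 values with shMETTL14 over shControl were 0.69 to 0.89 where that of SLIT2 was 2.81. With rows that overlap a nearer one set aside, a step chosen after the data were seen, the next were NEDD4L (r 0.957), an E3 ubiquitin ligase, MAD1L1 (0.941), a mitotic checkpoint protein, COMMD10 (0.931) and RRAS2 (0.931), a RAS-related GTPase. NEDD4L had 222 and 250 counts in control, 106 and 100 in shControl, 157 and 156 in shMETTL3 and 367 and 316 in shMETTL14 libraries.

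Of the other SLIT, ROBO and class 3 semaphorin genes, SLIT1 (0 to 5 counts) and SEMA3G (0 counts in all libraries) were not tested and 4 were. ROBO4, the endothelial ROBO, had 4 and 1 counts in control, 12 and 11 in shControl, 37 and 42 in shMETTL3 and 10 and 11 in shMETTL14 libraries. The shMETTL3 libraries stood above all others. ROBO4 rose in senescence (2.52, SE 0.65, edgeR adjusted p = 0.0042) and with shMETTL3 over shControl (1.55, SE 0.4, edgeR adjusted p = 0.0059), and was lower with shMETTL14 than with shMETTL3 (-1.84, SE 0.41, edgeR adjusted p = 0.00091), all at low counts. SEMA3B, a semaphorin with tumour suppressor activity, had 39 and 22 counts in control and 7 and 10 in shControl libraries (log2 -1.45, SE 0.48). Only its control libraries carried it past the count filter, so this is given as a description, without a p-value. SEMA3F, the preferred NRP2 ligand, had 25 to 79 counts and ROBO3 3 to 18.

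Plexins, the signaling partners of the neuropilins, were tested for 8 of 9 genes. In senescence 1 rose and 2 fell with a median of -0.24 (13.3% of all genes each way). With shMETTL3 over shControl 0 rose (12.2% of all genes) and 3 fell (11.2%) with a median of -0.48, and between the knockdowns 2 were higher (16.5%) and 0 lower (18.7%) with shMETTL14. These counts of 0 were also 0 at an unadjusted edgeR p below 0.05 and by DESeq2. PLXNA1, a plexin that pairs with NRP1 for SEMA3A, had 171 and 217 counts in shControl, 153 and 95 in shMETTL3 and 228 and 198 in shMETTL14 libraries. It fell with shMETTL3 (log2 -0.85, SE 0.19, edgeR adjusted p = 0.0017) and was higher by 0.83 with shMETTL14 than with shMETTL3 (SE 0.19, edgeR adjusted p = 0.0013), while SEMA3A moved the other way in both comparisons. PLXNB3 fell with shMETTL3 (log2 -1.82, SE 0.6, edgeR adjusted p = 0.028), and PLXNC1 fell in senescence (log2 -1.43, SE 0.37, edgeR adjusted p = 0.0041) and was higher with shMETTL14 than with shMETTL3 by 1.35 (SE 0.43, edgeR adjusted p = 0.015). PLXND1, the SEMA3E receptor, fell in senescence (log2 -0.55, SE 0.19, edgeR adjusted p = 0.031) and had 150 and 147 counts in control and 44 and 56 in shMETTL14 libraries. PLXNA2 had 3 and 3 counts in control and 12 and 11 in shControl libraries (edgeR adjusted p = 0.0093).

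Of 13 semaphorins of other classes, most of them membrane-bound, 9 were tested, with 3 higher and 2 lower in senescence (13.3% of all genes each way). SEMA6D had 47 and 58 counts in control, 481 and 465 in shControl, 524 and 629 in shMETTL3 and 179 and 235 in shMETTL14 libraries. It rose in senescence by 3.55 (SE 0.18, edgeR adjusted p = 1.3e-14) and was lower with shMETTL14 than with shMETTL3 (log2 -1.41, SE 0.15, edgeR adjusted p = 6.8e-08). SEMA7A, a lipid-anchored semaphorin that signals through integrins, rose in senescence by 3.31 (SE 0.26, edgeR adjusted p = 1.7e-10) and by 0.57 with shMETTL3 over shControl (SE 0.18, edgeR adjusted p = 0.022). SEMA5A rose with shMETTL3 by 0.90 over shControl (SE 0.14, edgeR adjusted p = 2.1e-05) and was lower with shMETTL14 than with shMETTL3 (log2 -1.19, SE 0.14, edgeR adjusted p = 2.1e-07), the directions SEMA3A had. SEMA4D, the plexin B1 ligand, fell in senescence (log2 -1.27, SE 0.35, edgeR adjusted p = 0.0076) and with shMETTL3 over shControl (log2 -1.30, SE 0.48, edgeR adjusted p = 0.049). SEMA6C, among the 2 counted as lower in senescence, had 16 and 12 counts in control and 0 and 1 in shControl libraries. Only its control libraries carried it past the count filter, so these counts are a description, without a p-value.

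All 18 genes listed for signaling below ROBO were tested. In senescence 0 rose (1 at an unadjusted edgeR p below 0.05 and 0 by DESeq2) and 3 fell (median -0.22), where 13.3% of all genes rose and 13.3% fell. With shMETTL3 over shControl 3 rose (12.2% of all genes) and 3 fell (11.2%), with a median of 0.19. GPC1, a glypican that binds SLIT, fell in senescence (log2 -0.69, SE 0.18, edgeR adjusted p = 0.0038), with 296 and 301 counts in control, 127 and 156 in shControl, 198 and 127 in shMETTL3 and 294 and 269 in shMETTL14 libraries. SRGAP1, a GTPase-activating protein that binds ROBO1, rose with shMETTL3 by 0.68 (SE 0.14, edgeR adjusted p = 0.00065) and was lower with shMETTL14 than with shMETTL3 (log2 -0.79, SE 0.14, edgeR adjusted p = 6.4e-05). SRGAP2, whose near-identical copies can share reads, rose with shMETTL3 by 0.66 (SE 0.19, edgeR adjusted p = 0.011). NCK2, an adaptor, fell in senescence (log2 -0.59, SE 0.2, edgeR adjusted p = 0.03) and was lower with shMETTL14 than with shMETTL3 (log2 -1.26, SE 0.22, edgeR adjusted p = 7.3e-05). DAG1, dystroglycan, which anchors SLIT, fell with shMETTL3 (log2 -0.84, SE 0.18, edgeR adjusted p = 0.001) as did VASP, an actin regulator (log2 -0.75, SE 0.19, edgeR adjusted p = 0.0055). ABL2, a tyrosine kinase, had 324 and 325 counts in shControl and 997 and 897 in shMETTL14 libraries and was higher with shMETTL14 than with shMETTL3 by 0.86 (SE 0.13, edgeR adjusted p = 1.2e-05).

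Of 24 genes listed for signaling below plexins 20 were tested, with 5 higher and 5 lower in senescence (13.3% of all genes each way). With shMETTL3 over shControl 2 were higher (12.2% of all genes) and 7 lower (11.2%), and between the knockdowns 6 were higher (16.5%) and 6 lower (18.7%). L1CAM, an adhesion molecule that forms part of the SEMA3A receptor and overlaps LCA10 over 22.3% of its span, had 11 and 8 counts in control, 68 and 59 in shControl, 19 and 12 in shMETTL3 and 95 and 72 in shMETTL14 libraries. It rose in senescence by 3.11 (SE 0.34, edgeR adjusted p = 5.4e-08), fell with shMETTL3 (log2 -2.24, SE 0.31, edgeR adjusted p = 6.2e-06) and was higher with shMETTL14 than with shMETTL3 by 2.47 (SE 0.3, edgeR adjusted p = 4.7e-07). DPYSL3, a CRMP protein of the semaphorin response, fell in senescence (log2 -1.25, SE 0.17, edgeR adjusted p = 1.3e-06). CHL1, a relative of L1CAM and among the 5 counted as lower there, had 45 and 23 counts in control and 8 and 8 in shControl libraries. Its log2 value was -1.69 (SE 0.47). Only its control libraries carried it past the count filter, so this is a description, without a p-value. MICAL2, of the family of oxidoreductases that act on actin below plexins, rose with shMETTL3 by 1.09 (SE 0.15, edgeR adjusted p = 3.4e-06) and GSK3B by 0.74 (SE 0.14, edgeR adjusted p = 0.00042). FURIN, a protease that processes class 3 semaphorins, fell with shMETTL3 (log2 -1.09, SE 0.24, edgeR adjusted p = 0.0014) and was higher with shMETTL14 than with shMETTL3 by 1.48 (SE 0.23, edgeR adjusted p = 1.3e-05).

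Netrins and their receptors, another guidance system, were tested for 9 of 11 genes, with 2 higher and 3 lower in senescence (13.3% of all genes each way). NTNG1, a membrane-anchored netrin, rose from 6 and 11 counts to 333 and 291 (log2 5.56, SE 0.25, edgeR adjusted p = 5.5e-16), and DCC, the netrin-1 receptor, from 44 and 58 to 621 and 562 (3.92, SE 0.18, edgeR adjusted p = 1.1e-15). NTN4, a basement membrane netrin of whose span 12.2% lies under the row PGAM1P5, fell from 239 and 264 to 37 and 84 counts (-1.67, SE 0.23, edgeR adjusted p = 2.8e-06) and again with shMETTL3 over shControl (-1.63, SE 0.32, edgeR adjusted p = 0.00048). UNC5C, a repulsive netrin receptor, fell in senescence (log2 -1.39, SE 0.4, edgeR adjusted p = 0.01), and DCC rose with shMETTL3 by 0.66 (SE 0.14, edgeR adjusted p = 0.00088).

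Ephrins and EPH receptors, a contact-dependent guidance system, were tested for 9 of 22 genes. In senescence edgeR called 0 higher and 0 lower (13.3% of all genes each way), with values from -0.66 to 0.96, while 2 were higher and 2 lower at an unadjusted p below 0.05 and DESeq2 called 0. With shMETTL3 over shControl 5 rose (12.2% of all genes) and 1 fell (11.2%), with a median of 0.9, and between the knockdowns 2 were higher (16.5%) and 4 lower (18.7%) with shMETTL14. EPHA4, a receptor of both ephrin classes, had 160 and 174 counts in shControl, 825 and 877 in shMETTL3 and 131 and 239 in shMETTL14 libraries. It rose with shMETTL3 by 2.13 (SE 0.18, edgeR adjusted p = 2.5e-09) and EPHA5 by 2.22 (SE 0.29, edgeR adjusted p = 2.2e-06), and both were lower with shMETTL14 than with shMETTL3, EPHA4 (log2 -2.14, SE 0.18, edgeR adjusted p = 2.2e-09) and EPHA5 (log2 -2.34, SE 0.29, edgeR adjusted p = 4.5e-07). EFNB1 fell with shMETTL3 (log2 -2.13, SE 0.49, edgeR adjusted p = 0.0021), with 24 and 18 counts in shControl and 7 and 4 in shMETTL3 libraries. With shMETTL14 over shControl, given without a test, EFNB2 had a log2 value of 1.91, EPHB2 of -0.73, NTN4 of -2.54, SEMA6D of -1.35, DPYSL3 of -1.11 and ABL2 of 1.38.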

How the data were processed

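The files hold raw read counts per gene over the whole gene body, which the authors made from fastGRO-seq reads with HOMER on hg19 and deposited without normalization, replicates kept apart. The submitters' processing notes name STAR and deepTools 3.3. The table header asks for strand-specific counting, and whether opposite strands were kept apart was not settled. A Drosophila spike-in was not used here. The table held 27945 genes, 6423 without a count, and 8 count columns, each matched to its sample by its name.

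The test was the quasi-likelihood test of edgeR 4.0.16 under R 4.3.3 (TMM, filterByExpr with a minimum count of 10, 1 fit over the 4 groups, Benjamini-Hochberg over 12844 genes, threshold 0.05). The biological coefficient of variation was 10.6%. Normalized counts are TMM-scaled to the mean effective library size. Likeness to SLIT2 is Pearson's correlation of log2 normalized counts with a prior count of 2. On simulated counts with a log2 change of 1 put into 200 genes (shMETTL3 versus shControl), edgeR called 188 in the right direction and 12 unchanged genes among 12447, and DESeq2 1.42.0 called 175 and 1.

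Genes named are the 10 members, METTL3 and METTL14, rows overlapping a member, the 5 genes most like SLIT2 and, per gene list and comparison, up to 2 called genes with the largest rise and 2 with the largest fall, of which some are left out. Cell type markers, the untested or uncalled relatives SLIT1, SEMA3G, SEMA3F and ROBO3, and NEDD4L, MAD1L1, COMMD10 and RRAS2 fall outside this rule, the last 4 chosen after their values were seen. Members and lists were chosen with earlier results of these data known. Alternatives were DESeq2, library size alone, upper quartile, no filter, at least 10 counts in every library, only the groups compared, a replicate block, no ribosomal RNA rows (21 of them), thresholds of 0.01 for the adjusted p or of 1 for the size of the log2 value, and each library left out. Plots were drawn with matplotlib 3.10.9.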

Additional observations from a re-analysis of the deposited data

Results flagged for a closer look

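The knockdowns gave different changes over the same shControl libraries for 4 of the 8 tested genes other than SLIT2. The test was the direct edgeR quasi-likelihood test of shMETTL14 against shMETTL3. All 4 were lower with shMETTL14, as were 18.7% of all genes, and 0 were higher, where 16.5% of all genes were. The log2 difference was -1.43 for SEMA3A, -1.01 for NRP1, -1.06 for ROBO2 and -0.36 for SEMA3C. The first 3 held in all 16 alternative fits (SEMA3A -1.71 to -1.24, NRP1 -1.28 to -0.84, ROBO2 -1.33 to -0.89). That of SEMA3C held in 4. With 2 libraries per group, no group was large enough to look for a single library far from the rest.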

How the results depend on the processing

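Of 839 log2 values recomputed under the alternatives, 759 kept direction and side of the threshold, 24 passed it newly, 40 lost it and 16 reversed. In senescence, library size alone reversed ROBO1 (-0.33), SEMA3A (-0.42), SEMA3C (-0.09) and NRP1 (-0.04). SEMA3A ran from -0.02 (without control replicate 1) to 0.19 with a library left out. NRP2, at -0.02, became 0.001 with no filter, 0.02 with only the groups compared and 0.0028 without ribosomal RNA rows, and ran from -0.27 to 0.2 with a library left out, 0.01 without shMETTL14 replicate 1. ROBO2 with shMETTL3 over shControl ran from -0.04 to 0.4. With shMETTL14 over shControl, SEMA3D became 0.05 with library size alone and ran from -0.7 to 0.3, and SEMA3E from -0.14 to 0.78. SEMA3E with shMETTL3 over control ran from -0.71 to 0.25, 0.04 without shMETTL3 replicate 1. Of these only SEMA3C and NRP1 in senescence had passed the test. The cause was not tested.

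Of the 9 fitted guidance genes, SLIT2 included, those higher in senescence numbered 2, but 1 with DESeq2 or upper quartile, 0 with library size alone, at an adjusted p below 0.01 or at a log2 size of 1 or more, and 0 to 2 with a library left out. Those lower in senescence numbered 6 with library size alone, where so were 5007 of all 12844 genes. With shMETTL3 over shControl, 8 rose with library size alone, where 5285 of all genes did, and 0 at a log2 size of 1 or more, and 2 to 5 rose and 0 to 1 fell with a library left out. With shMETTL14 over shControl, 4 were higher and 0 lower with library size alone, where 3163 and 710 of all genes were, 1 and 0 at a log2 size of 1 or more, and 1 to 2 higher and 1 to 3 lower with a library left out. Between the knockdowns 1 to 2 were higher with a library left out. Against control, a log2 size of 1 or more left 0 higher with shMETTL3 and 0 higher and 1 lower with shMETTL14, and 1 to 3 were lower with shMETTL14 with a library left out. Where 1 library was left alone in its group, it is assumed to vary like the others. SLIT2 is always among the genes counted as higher with shMETTL14 over shControl and between the knockdowns, and as lower in senescence. It was chosen on these libraries, so nothing is read from how steady those counts are.

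Over all genes, DESeq2 called 1145 higher and 795 lower in senescence, 883 and 635 with shMETTL3 and 486 and 865 with shMETTL14 over shControl, and 1049 and 1607 between the knockdowns, where edgeR called 1711 and 1702, 1573 and 1434, 1175 and 1545, and 2118 and 2399. Over control it called 1881 and 1347 with shMETTL3 and 1615 and 1630 with shMETTL14, where edgeR called 2579 and 2583, and 2531 and 2636. Some filters removed SEMA3D or SEMA3E, which then had no value. Depth limits SLIT3, SEMA3D and SEMA3E, with 0 to 28 counts per library.

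Replicate numbers shared across groups gave no clear sign of pairing: correlations of replicate differences between groups ran from -0.0631 to 0.296. With 2 libraries per group this check cannot exclude pairing. With the replicate block, of the 9 fitted guidance genes, SLIT2 included, 2 rose and 2 fell in senescence. With shMETTL3 over shControl 4 rose and 0 fell, and the counts of calls did not change in any comparison.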
